A study of Mus musculus with 73 samples.

Results

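The ligands of the epidermal growth factor (EGF) family and their ERBB receptors were followed through 3 kinds of measurement in mouse jejunum. The 9 genes were taken by name: the ligands Egf, Ereg, Areg, Nrg1, Hbegf and Tgfa, and the receptors Egfr, Erbb2 and Erbb3. They are 9 of 28243 gene names listed in any of the tables, 6 ligands and 3 receptors. The table of microdissected stroma listed 8 of them (not Hbegf), the table of isolated epithelium all 9, and the table of single cells 8 (not Egf).

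The stroma was cut by laser capture microdissection (LCM) from C57BL/6 mice aged 3 months into 4 zones, namely the crypt (3 mice), villus bottom, villus center and villus tip (5 mice each), and sequenced by SMART-seq. Single jejunal cells came from 8 C57BL/6 mice aged 3 months, sorted in 11 gates on surface proteins and sequenced by MARS-seq. The epithelium came from Lgr5(GFP-ires-DTR/+) mice aged 4 months, 4 given diphtheria toxin (DT) and 4 given saline vehicle (control) intraperitoneally, collected after 48 h and sequenced by mcSCRB-seq. Both of these groups carry the allele, which puts the toxin receptor on every Lgr5+ cell, so that the toxin can reach the stem cells of the crypt base as well as the Lgr5+ telocytes of the villus tip. The epithelium was loosened with EDTA and is a mixture of all its cell types, so that fewer cells of a type and less RNA per cell cannot be told apart in it.

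EGF family ligands are made as membrane-anchored precursors, cut free by ADAM proteases, and bind receptor tyrosine kinases on the same or on neighbouring cells. EGF, TGF-alpha, amphiregulin, epiregulin and heparin-binding EGF bind EGFR, whereas neuregulins bind ERBB3 and ERBB4. ERBB2 has no ligand of its own and ERBB3 has little kinase activity, so that both act in dimers with other members, and the dimers feed the RAS-ERK and PI3K-AKT cascades. In the intestine this signalling supports the proliferation of crypt cells and the repair of the epithelium.

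In the GENCODE annotation of GRCm38 the ligand genes lie at chr3:129677565-129755316 (Egf), chr5:91074622-91093646 (Ereg), chr5:91139599-91148432 (Areg), chr8:31814551-32884029 (Nrg1) and chr6:86195223-86275719 (Tgfa), Egf and Nrg1 on the minus strand. Ereg and Areg are neighbours on the plus strand of chromosome 5. The receptor genes lie at chr11:16752203-16918158 (Egfr) and chr11:98412470-98437716 (Erbb2), both on the plus strand, and chr10:128567523-128589652 on the minus strand (Erbb3). Promoters of 300 bases around the start, from RefSeq on GRCm38.p6, were matched for 5 members (Egf, Areg, Tgfa, Egfr and Erbb2). Those of Egfr (chr11:16751953-16752252), Erbb2 (chr11:98412234-98412533) and Tgfa (chr6:86194972-86195271), all on the plus strand, are shown because Egfr on the one hand and Erbb2 and Tgfa on the other lay on opposite sides of the comparison of mesenchymal and epithelial cells below. Capitals mark the GC box GGGCGG or its reverse complement CCGCCC.
Egfr: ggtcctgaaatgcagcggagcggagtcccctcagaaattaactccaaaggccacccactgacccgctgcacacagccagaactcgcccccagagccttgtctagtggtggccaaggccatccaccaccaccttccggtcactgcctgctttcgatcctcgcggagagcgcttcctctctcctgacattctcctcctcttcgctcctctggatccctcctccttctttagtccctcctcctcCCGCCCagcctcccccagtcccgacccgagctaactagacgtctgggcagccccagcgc
Erbb2: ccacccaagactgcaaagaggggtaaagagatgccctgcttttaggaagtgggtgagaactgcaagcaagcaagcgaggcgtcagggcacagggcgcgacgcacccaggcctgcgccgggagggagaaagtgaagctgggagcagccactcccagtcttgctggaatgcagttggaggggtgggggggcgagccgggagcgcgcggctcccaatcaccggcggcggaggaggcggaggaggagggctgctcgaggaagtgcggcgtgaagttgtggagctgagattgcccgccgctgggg
Tgfa: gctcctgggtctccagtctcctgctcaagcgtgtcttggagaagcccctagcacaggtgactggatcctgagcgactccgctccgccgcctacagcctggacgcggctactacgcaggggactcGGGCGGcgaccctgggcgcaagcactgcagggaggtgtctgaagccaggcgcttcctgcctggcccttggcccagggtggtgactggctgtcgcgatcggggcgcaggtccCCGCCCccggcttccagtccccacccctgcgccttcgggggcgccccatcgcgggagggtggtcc

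The GC content of these windows was 62.3% (Egfr), 66.0% (Erbb2) and 70.7% (Tgfa). The GC box occurred 1 time in Egfr, 2 times in Tgfa and 0 times in Erbb2, searched on both strands, and 35.7% of all 32851 promoters in the table held it at least 1 time. The Areg promoter held 2, and the 2 listed promoters of Egf held 0. These matches describe letters and not bound sites.

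The epithelial samples held 748458 to 4210158 unique molecular identifiers (UMIs, 1 per counted mRNA molecule) and the LCM sections 5481 to 17306 genes above 0, with no read depth in that table. Of 12346 wells used, 2347 passed the limits of 400 to 8000 UMIs and at least 250 genes. A cell was called epithelial when Epcam was detected and mesenchymal when Pdgfra or Dcn was, which gave 1190 epithelial cells of 8 mice (median 2022 UMIs) and 317 mesenchymal cells of 5 mice (median 1030). A further 25 cells had both kinds of marker, 37 had Ptprc alone and 778 had none of these. All 8 genes of the epithelial marker list had UMIs in the epithelial class, at 974 UMIs per 1e5 against 23.9 in mesenchymal cells, and all 8 of the mesenchymal list were detected in mesenchymal cells, at 3376 against 1.16. The immune list had 114 UMIs per 1e5 in epithelial and 4.88 in mesenchymal cells, of which Cd74, a chaperone of MHC class II, made up 113 and 4.11, and Ptprc was found in 3 epithelial and 0 mesenchymal cells. Its part in the values of the members was not tested. The gates did not separate the classes: 377 epithelial cells came from the PDGFRa singlets gate. Nothing in the labels says that wells with 2 cells were removed, no doublet caller was run on the plates, and 384 well barcodes recur on every plate, so that a cell is known by plate and barcode together. In the isolated epithelium, summed CPM of 3 lists did not overlap between the groups. The tuft list was at 5.19 to 10.9 with DT and 39.7 to 69.4 in controls. The villus tip enterocyte list was at 109 to 284 and 700 to 830, and the Paneth list at 588 to 1583 and 3073 to 9935. The goblet list (3750 to 6066 and 5587 to 10395) and the immune list (189 to 887 and 833 to 1348) overlapped. So did the crypt stem, cycling, epithelial and mesenchymal lists. The share of all genes without overlap was not counted. The study had already reported the villus tip enterocyte genes Ada, Nt5e and Slc28a2 as reduced in these samples. By imaging, it also reported lower levels of the member Egfr in villus tip enterocytes after DT.

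The first comparison asks which of 2 classes of jejunal cells, epithelial or mesenchymal, held the mRNA of each member, whatever their place along the crypt-villus axis. Erbb3, Erbb2 and Hbegf were higher in epithelial than in mesenchymal cells, whereas Egfr had 9.497 UMIs per 1e5 in mesenchymal and 1.06 in epithelial cells. Tgfa had UMIs in epithelial and 0 in mesenchymal cells. Areg, Ereg and Nrg1 rested on few UMIs in either class. Cells of 1 mouse are not replicates, so UMIs were summed per mouse and class, which gave 8 epithelial and 4 mesenchymal sums of at least 5 cells.

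Erbb3, the kinase-poor receptor of the neuregulins, had a UMI in 249 of 1190 epithelial cells (20.9%, exact 95% interval 18.7% to 23.3%) and in 2 of 317 mesenchymal cells (0.631%). In the 8 epithelial sums it ranged from 0 to 14.0 UMIs per 1e5 with a median of 9.22, and in the 4 mesenchymal sums it was 0.913, 0, 0 and 0.377 (mice A, B, E and G). All epithelial sums but that of mouse D, which had 8 cells, were above every mesenchymal sum. Erbb3 was the only member past edgeR's filter on low counts. It passed through its epithelial sums, with 339 UMIs in epithelial and 2 in mesenchymal cells. The filter thus selected it through the class in which it was high. It was 4.18 higher on the log2 scale in epithelial cells (SE 0.84, edgeR quasi-likelihood test, adjusted p = 3.35e-05). In that fit 63.5% of 2780 genes were called. The exact two-sided permutation test over the sums gave p = 0.0202, where 8 against 4 allow no less than 0.00202. It took the sums as independent, although mice A, B, E and G gave both classes. This limit holds for every permutation p-value between these classes.

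The other members fell below the filter, so they were also tested in a fit that kept every gene with at least 1 UMI. In that fit 27.5% of 18320 genes were called, the median log2 fold change over all of them was 0.43, and 6 of the 8 listed members were called, 4 higher in epithelial cells (Erbb3, Erbb2, Hbegf and Tgfa) and 2 higher in mesenchymal cells (Egfr and Nrg1). The median over the 8 was 2.69, which rests in part on genes at 0 in one class, whose fitted fold changes depend on a small added count. With the mouse as a block, as cells of both classes came from the same 4 animals, 4 members were called: Nrg1 (adjusted p = 0.303) and Tgfa (0.106) were no longer so.

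Erbb2, the receptor without a ligand, had 145 UMIs in 104 epithelial cells (8.74%, interval 7.20% to 10.5%) and 3 UMIs in 3 mesenchymal cells (0.946%). Its level was 3.84 to 11.4 UMIs per 1e5 over the 8 epithelial sums, median 4.82, and 0, 0, 0 and 1.13 over the mesenchymal sums of mice A, B, E and G. The groups did not overlap. The ratio of the summed levels was 6.22 (interval from counting error alone 2.09 to 30.5), with a fitted log2 difference of 3.30 (SE 0.86, edgeR, adjusted p = 0.00109) and p = 0.00404 in the exact permutation test. Without mouse A the adjusted p was 0.0634.

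Egfr, the receptor of most of these ligands, ran the other way. It had 37 UMIs in 22 mesenchymal cells (6.94%, interval 4.40% to 10.3%) and 32 UMIs in 22 epithelial cells (1.85%, interval 1.16% to 2.79%). The mesenchymal sums held 2.74, 22.3, 24.7 and 11.7 UMIs per 1e5 in mice A, B, E and G, from 3, 1, 2 and 31 UMIs, and the epithelial sums 0 to 1.71, median 0.19. Every mesenchymal sum lay above every epithelial sum, also within each of the 4 mice that gave both classes. The exact permutation test, which did not keep this pairing, gave p = 0.00202, the smallest possible here. edgeR gave a log2 difference of -2.59 for epithelial over mesenchymal (SE 0.61, adjusted p = 0.000201, and 0.0459 with the mouse as a block). Of the mesenchymal UMIs 31 of 37 came from mouse G, and without that mouse the difference was -1.95 with an adjusted p of 0.200. Mesenchymal cells with Pdgfra held 8.98 UMIs of Egfr per 1e5 and those with Dcn alone 9.84. With every cell thinned to 400 UMIs, which leaves out 0 cells, the share of cells with Egfr was 2.77% among mesenchymal and 0.50% among epithelial cells, and that with Erbb3 0.38% and 4.78%.

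Among the 5 ligands listed, Hbegf had the smallest adjusted p. This ligand is the mouse form of the protein whose primate form is the diphtheria toxin receptor. It had 131 UMIs in 92 epithelial cells (7.73%, interval 6.28% to 9.40%) of 7 mice and 0 UMIs in 317 mesenchymal cells, which allows a share of cells with a UMI of up to 0.946% at this depth and sets no limit on cells that express the gene. The epithelial sums ran from 0 (mouse D) to 6.80 UMIs per 1e5, median 1.90, and the 4 mesenchymal sums were all 0. Over the class sums the epithelial level of Hbegf was 5.62 times a floor of 3 UMIs over the mesenchymal class. The counting error of its epithelial UMIs is left out of this ratio. The adjusted p of edgeR was 0.00011. The exact permutation test gave p = 0.0384. Without mouse G the adjusted p was 0.0624, and DESeq2 gave 0.0589.

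Tgfa, a ligand of EGFR that stays on the membrane until it is cut, had 28 UMIs in 24 epithelial cells of 4 mice and 0 in mesenchymal cells. Its epithelial level was 1.20 times the same floor (edgeR adjusted p = 0.0337). That ratio leaves out the counting error of the 28 UMIs, so it sets no lower limit on the difference. The epithelial sums were 0 in 4 of 8 mice and at most 1.74 UMIs per 1e5, so that they overlapped the mesenchymal zeros (exact permutation p = 0.232). Leaving out any mouse but H ended its call (adjusted p 0.0531 to 0.391, and 0.0495 without H). Areg, the gene of amphiregulin, had 22 UMIs in 19 epithelial cells and 1 UMI in mesenchymal cells, a ratio of 2.83 with a counting interval of 0.458 to 117, and was not called (adjusted p = 0.211). Its highest sum, 11.4 UMIs per 1e5 in mouse D, was 1 UMI in 8 cells.

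Ereg, the gene of epiregulin, had 7 UMIs in epithelial cells of 3 mice and 6 UMIs in mesenchymal cells, 5 of them in mouse A (adjusted p = 0.127, exact permutation p = 0.263). Nrg1, the neuregulin gene of the list, had 3 UMIs in 2 mesenchymal cells of mouse A and 1 UMI in an epithelial cell of mouse D. Its call in the fit without the filter (adjusted p = 0.0374) rested on these 4 UMIs, and the exact permutation test gave p = 1. Without mouse A both genes changed direction, Ereg to 0.297 and Nrg1 to 1.17 on the log2 scale. Without mouse F the adjusted p was 0.0424 for Ereg and 0.0517 for Nrg1.

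Both classes could also be read within single sorting gates. The PDGFRa singlets gave 377 epithelial and 223 mesenchymal cells, in which Erbb3 had 82 and 1 UMIs, Erbb2 35 and 3 (3.73 and 1.02 per 1e5), Hbegf 44 and 0, and Egfr 15 and 33. The EPCAM PDGFRa doublets gave 311 and 52 cells, in which Erbb3 had 92 and 1 UMIs, Erbb2 30 and 0 and Hbegf 40 and 0. Egfr had 11 UMIs in epithelial cells there (1.59 per 1e5) and 0 in mesenchymal cells. In those 52 mesenchymal cells 1 UMI is 1.85 per 1e5, so the 0 gives no direction for Egfr in this gate. Free mRNA in the wells was looked at through the cells with Ptprc alone, in which Erbb3, Erbb2, Egfr and Tgfa had 0 UMIs in 37 cells (median 964 UMIs) and Hbegf 1 UMI. These cells held 38753 UMIs in all and the epithelial list at 183 per 1e5, too few to tell how much of the members' level is background.

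**Figure D1:**
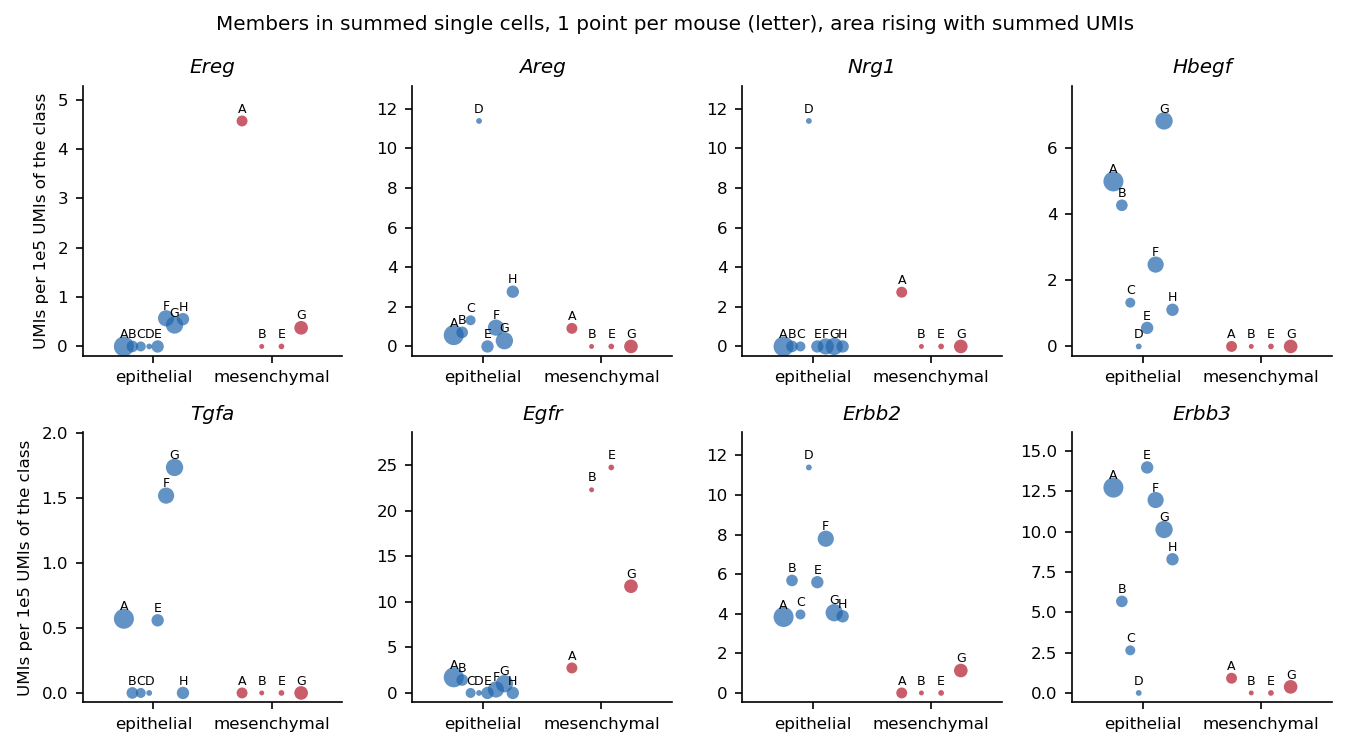
UMIs per 1e5 UMIs of the class (y axis) for 8 members in summed epithelial (blue) and mesenchymal (red) cells, 1 point per mouse with its letter and an area that rises with the summed UMIs of that mouse and class. Egfr is higher in all 4 mesenchymal sums (2.74 to 24.7) than in all 8 epithelial sums (0 to 1.71), and Erbb2 the reverse; mouse D has 8 epithelial cells, so 1 UMI there is 11.4 per 1e5.

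Genes that act on the ligands or after the receptors were read from lists, in the same fit without the count filter (27.5% of all genes called). Of 6 sheddase genes, 2 were called, both lower in epithelial cells: Rhbdf1, an iRhom partner of ADAM17 (5 UMIs in epithelial and 18 in mesenchymal cells, adjusted p = 0.000307), and Adam12 (2 and 10 UMIs, 0.0011). Of 15 inhibitors of the receptors or of RAS-ERK signalling, 2 were higher and 5 lower in epithelial cells. Dusp6 and Dusp5, phosphatases of ERK itself, were the higher ones, with log2 differences of 2.26 (adjusted p = 0.00829) and 3.18 (0.0249). Those lower were the Sprouty genes Spry1 (2 UMIs in epithelial and 33 in mesenchymal cells), Spry2 (7 and 17) and Spry4 (0 and 9), the related Spred1 (9 and 18) and the ubiquitin ligase gene Cblb (11 and 15).

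Of 16 genes of the RAS-ERK cascade, 4 were higher in epithelial cells, the adaptor Grb2 (log2 difference 1.96), the ERK kinases Map2k1 (1.80) and Map2k2 (2.19), and the ERK gene Mapk3 (1.74), and 0 lower. Of 7 PI3K-AKT genes only Akt2 was called, lower by 1.54 (adjusted p = 0.0420). Of 10 tested genes that growth factors induce in many cells, Fos, Fosb, Jun and Junb were higher in epithelial cells, by 2.37 for Fos (938 and 29 UMIs) and 1.53 for Jun (365 and 21), and Etv5 was lower (0 and 4 UMIs). The list medians were -1.42 (sheddases), -0.69 (inhibitors), 0.60 (RAS-ERK), 0.38 (PI3K-AKT) and 0.39 (induced genes), beside 0.43 over all genes. With the filter on low counts, 63.5% of 2780 genes were called and 0 sheddase and inhibitor genes were left to test. Map2k2 and Mapk3 were called of 6 RAS-ERK genes, Akt1 was lower as the 1 PI3K-AKT gene tested, and Fos was called of 3 induced genes. Of the rest of the family, Nrg4 had 1 UMI in epithelial cells, Btc 1 in mesenchymal cells and Erbb4 0 in both.

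Within the epithelium, cells with a UMI of the villus tip genes Ada, Nt5e or Slc28a2 (326 cells) were set against cells with a UMI of the cycling genes Mki67 or Top2a (32 cells), to ask where along the crypt-villus axis the members lay. Hbegf was found in 59 of 326 tip-gene cells (18.1%, interval 14.1% to 22.7%), in 33 of 828 cells with neither mark (3.99%, interval 2.76% to 5.55%) and in 0 of 32 cycling cells, which allows a share of cells with a UMI of up to 9.38%. Cycling cells were the deeper ones, with a median of 4384 UMIs against 1814 in tip-gene cells. Erbb3 was found in 29.4% of tip-gene cells, 17.9% of cells with neither mark and 15.6% of cycling cells.

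Only 2 mice, A and F, gave at least 5 cycling cells, against 6 mice with tip-gene cells, so the smallest exact p is 0.0357. The permutation test took these sums as independent, although A and F gave both kinds. Hbegf had 13.5, 19.6, 2.04, 13.8, 13.8 and 1.97 UMIs per 1e5 in the tip-gene cells of mice A, C, E, F, G and H. It had 0 in the cycling cells of both mice. Those zeros rest on 85571 (A) and 18999 (F) UMIs, in which 1 UMI is 1.17 and 5.26 per 1e5. The tip-gene values of E and H rest on 1 and 2 UMIs. Every tip-gene sum was above 0, but at this depth that does not separate the groups. The exact permutation test on the mean difference gave p = 0.143. Over the class sums the tip-gene level of Hbegf was 4.99 times a floor of 3 UMIs over the cycling cells. This ratio leaves out the error of the tip-gene count. For Erbb3 the ratio was 3.22 (counting interval 1.52 to 8.16; exact permutation p = 0.393), for Erbb2 42 against 1 UMIs gave 7.07 (1.20 to 286; p = 0.214), and for Egfr 19 against 1 UMIs gave 3.20 (0.508 to 133). The direction of Egfr turned over the mouse sums, with a mean of 0.966 UMIs per 1e5 in tip-gene and 2.63 in cycling cells (p = 0.643). The intervals of Erbb2 and Egfr were wide because a single UMI stood on the cycling side. Areg (6 UMIs), Tgfa (6) and Ereg (3) were seen in tip-gene cells and had 0 UMIs in cycling cells, below what 32 cells can show.

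0 members passed the filter on low counts in this comparison, in which 55.0% of 1574 genes were called by edgeR. Without the filter 10.2% of 13599 genes were called and 2 of 7 members were, Hbegf (adjusted p = 0.00598) and Erbb3 (log2 difference 3.36, SE 1.13, adjusted p = 0.0333). All 7 had a positive difference, as had 62.8% of all genes, with medians of 3.18 and 1.01. Hbegf, Areg, Tgfa and Ereg had 0 UMIs in cycling cells, which left them no other sign, and Erbb2 and Egfr had 1 UMI each there. The count of 7 is thus no result about the members. With the mouse as a block 0 of 7 were called (Hbegf 0.0860, Erbb3 0.214), and DESeq2 called 0 of the 3 it tested (Hbegf 0.0686). Erbb3 had 23.5, 0, 6.11, 3.46, 13.8 and 10.9 UMIs per 1e5 in the tip-gene cells of mice A, C, E, F, G and H, and 1.17 and 5.26 in the cycling cells of A and F. Tip-gene cells were thus higher in A and lower in F. Of the 7 cycling UMIs 5 came from mice E (3 UMIs in 3 cells, 26.9 per 1e5) and H (2 in 2 cells, 74.6), which had too few cycling cells to enter the test and in which cycling cells were the higher ones. The call of Hbegf was lost without mouse A (0.765) or G (0.0905), and that of Erbb3 without A (0.765), C (0.0506), E (0.0601), F (0.0720) or G (0.243). Of the induced genes, 9 were tested without the filter. Jun (7.59, 226 UMIs in tip-gene and 1 in cycling cells) and Fos (2.69, 391 and 16) were higher in tip-gene cells. Myc was lower (-4.94, 0 and 7 UMIs). Dusp6 was the 1 inhibitor gene called of 13, higher by 6.80 (130 and 1 UMIs). Fold changes beside 0 or 1 UMI depend on the added count, and nearly all calls over all genes were lost without mouse A. Map2k2 was the 1 RAS-ERK gene called of 16 (2.42) and Akt1 the 1 PI3K-AKT gene of 7 (-2.73).

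**Figure D2:**
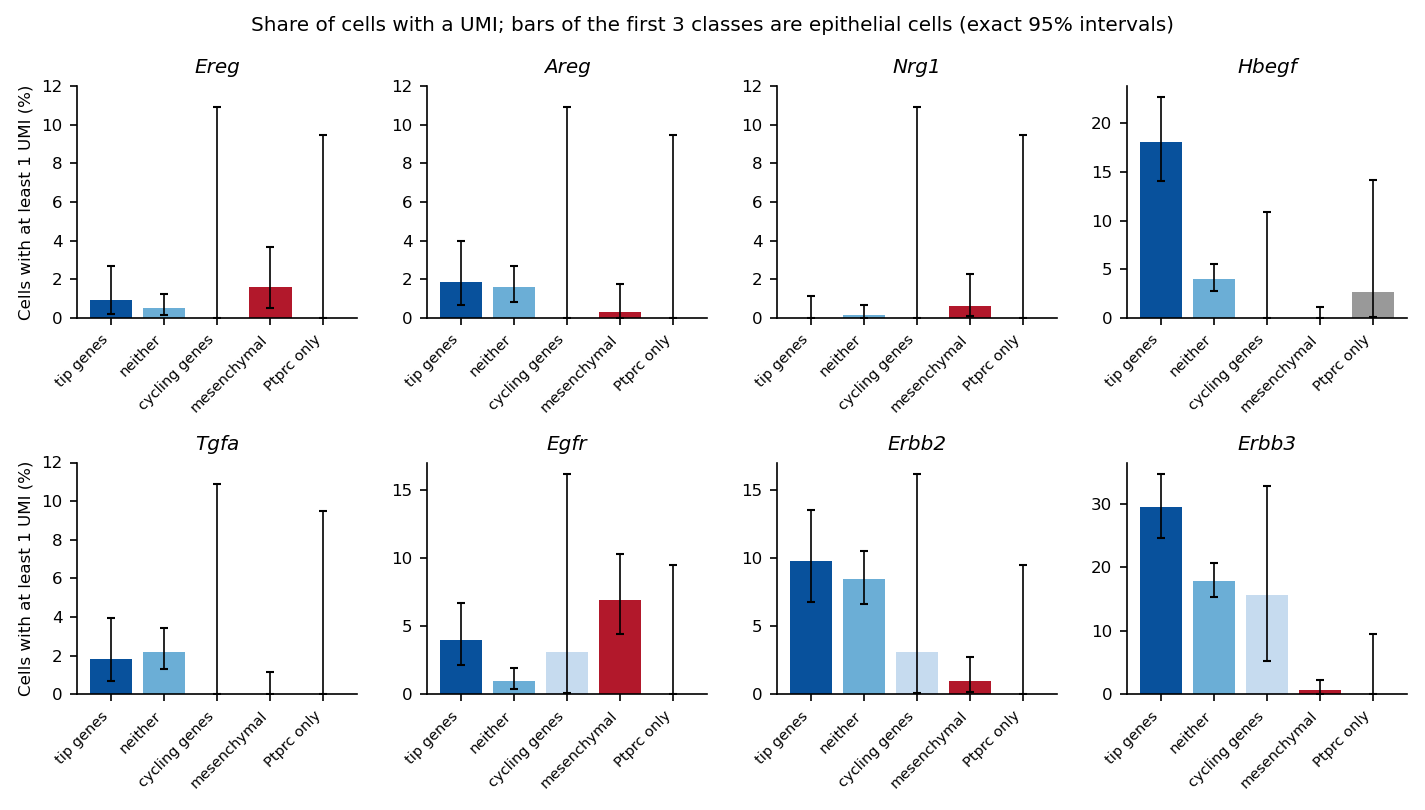
Percent of cells with at least 1 UMI of each member (y axis, scales differ) in epithelial cells with villus tip genes (326), with neither mark (828) and with cycling genes (32), in mesenchymal cells (317) and in cells with Ptprc alone (37); bars are shares and lines exact 95% binomial intervals, which cover counting error only. Hbegf stands at 18.1% in tip-gene cells and 3.99% in those with neither mark, Egfr at 6.94% in mesenchymal cells, and the intervals of the 2 small classes are wide.

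**Figure D3:**
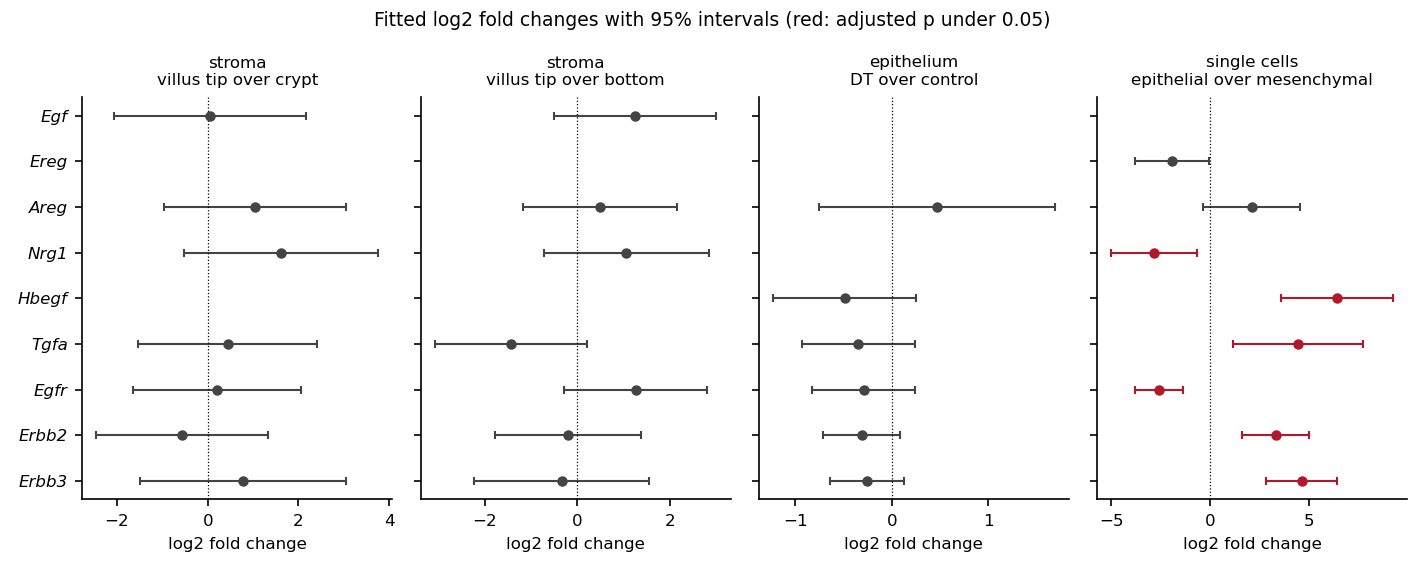
Fitted log2 fold changes (x axis) with 95% intervals for the members (y axis) in stroma, villus tip over crypt and villus tip over villus bottom (limma), in epithelium, DT over control (edgeR), and in single cells, epithelial over mesenchymal without a count filter (edgeR); red marks an adjusted p under 0.05. The single-cell panel alone holds red points, 4 to the right (Hbegf, Tgfa, Erbb2, Erbb3) and 2 to the left (Nrg1, Egfr), and the fold changes of Hbegf and Tgfa, at 0 UMIs in mesenchymal cells, depend on the added count.

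The second comparison asks whether the members were zonated in the stroma along the crypt-villus axis. No member passed the adjusted test between zones, and neither did any other gene. Egfr was higher at the villus tip than at the villus bottom in 5 of 5 mice and Tgfa lower in 4 of 5, and neither passed the test. The levels are parts per 1e6 (ppm) of the sample's transcripts after genes abundant in enterocytes were taken out, and a zone value of a mouse is the mean of its sections. With limma on log2(ppm + 1), and the mouse as a block, 0 of the 7 members tested passed at villus tip over crypt, villus tip over villus bottom, villus bottom over crypt or over all 4 zones (0 at an unadjusted p under 0.05 in the pairwise comparisons, and Areg in the last). Of all 13535 genes tested 0% were called in each of the 4.

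Egf, the founding member of the family, had a crypt level of 7.11 ± 6.01 ppm (SD over 3 mice), and over 5 mice its level was 10.0 ± 11.5 ppm at the bottom of the villus, 26.4 ± 50.3 at the center and 56.7 ± 99.4 at the tip. The tip values of mice 1 to 5 were 0.69, 36.9, 3.25, 233 and 10.1 ppm and the bottom values 0.77, 2.09, 2.05, 22.6 and 22.8. Mouse 4 was far above the others at the tip, followed by mouse 2, and the zones overlapped throughout. The log2 difference of tip over bottom was 1.25 (SE 0.83, adjusted p = 0.719), with 3 of 5 mice higher at the tip. Over the 18 mouse and zone values, which share mice and sections, the genes whose levels followed Egf most closely were AA386476 (Pearson r = 0.90), Psmd5 (0.88) and Agbl2 (0.88) of 13535 genes.

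Areg had 4.53 ± 5.61 ppm in the crypt, 15.5 ± 19.9 at the bottom, 7.96 ± 17.6 at the center and 24.5 ± 40.5 at the tip. Its center values were 0.29, 0, 0, 0 and 39.5 ppm, so that 3 of 5 mice were listed at 0 there, whereas the tip held 6.93, 11.7, 5.52, 1.61 and 96.6. Every mouse had more at the tip than at the center, and mouse 5 was highest in the bottom, center and tip. The test over the 4 zones gave an unadjusted p of 0.0485 and an adjusted p of 0.725 (limma). Ereg stayed under the limit of 5 ppm in the mean of each zone (1.16 to 3.30 ppm) and was not tested there. In single mice it was between 0 and 10.1 ppm.

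Tgfa was at 17.8 ± 11.2 ppm at the villus bottom and at 6.71 ± 7.06, 7.34 ± 7.77 and 6.21 ± 5.09 in the crypt, center and tip. The bottom held 8.65, 5.33, 16.4, 30.1 and 28.3 ppm in mice 1 to 5 and the tip 2.21, 10.8, 12.6, 1.75 and 3.73. Mouse 2 alone had more at the tip. The difference of tip over bottom was -1.44 (SE 0.78, 95% interval -3.08 to 0.21, adjusted p = 0.672; exact paired permutation p = 0.188). Nrg1 had means of 1.07 ± 0.88 ppm in the crypt, 5.10 ± 5.21 at the bottom, 8.75 ± 10.5 at the center and 14.3 ± 14.3 at the tip. The crypt values were 2.07, 0.70 and 0.45 ppm and the tip values 0.90, 3.35, 7.85, 27.8 and 31.6, which overlap through mouse 1. Its tip over crypt difference was 1.62 (SE 1.01, interval -0.52 to 3.76, adjusted p = 1.0). The 2 highest tip values came from mice 4 and 5, which have no crypt sample.

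Egfr had 6.97 ± 4.85 ppm in the crypt, 3.93 ± 3.94 at the villus bottom, 10.9 ± 10.1 at the center and 9.75 ± 4.32 at the tip. At the bottom it was 1.57, 1.15, 1.72, 10.5 and 4.75 ppm in mice 1 to 5, and at the tip 11.4, 2.02, 11.9, 11.7 and 11.7. The tip value was the higher in each mouse, and 4 of the 5 tip values lay above all bottom values. Mice 1 to 3 had 2 sections per zone here, and their lower tip section lay below their higher bottom section. These were at 1.34 against 3.02, 1.32 against 1.49 and 3.39 against 3.43 ppm. The log2 difference was 1.26 (SE 0.73, interval -0.28 to 2.81, limma adjusted p = 0.690). The exact paired permutation test gave p = 0.0625, the smallest that 5 pairs allow.

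Erbb2 had 17.7 ± 14.4 ppm in the crypt, 15.4 ± 20.2 at the bottom, 3.16 ± 3.40 at the center and 10.0 ± 8.96 at the tip, with 50.6 ppm in the bottom of mouse 1 and 1.27 to 11.9 in that of the others. Its tip over bottom difference was -0.20 (SE 0.75, adjusted p = 0.960). Erbb3 had its highest mean in the crypt, 31.2 ± 37.3 ppm from values of 72.5, 0.03 and 21.1, followed by 19.9 ± 12.04, 13.1 ± 10.0 and 13.5 ± 4.62 up the villus. Tip values of 20.3, 13.4, 7.41, 12.4 and 13.9 ppm were close to each other beside the crypt values, which differed most between mice. The values of neighbouring zones overlapped for both receptors.

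Sections differed as well: in 11 pairs of sections of the same mouse and zone, the median difference was 1.86 on the log2 scale for Egfr, 2.55 for Tgfa, 2.42 for Erbb3 and 0.94 for Egf, and Areg was at 0 in 12 of 29 sections. Marker genes of other cells were read in the same samples, and 0 of them were called between zones. All 8 genes of the epithelial list were among those taken out, which held 4.97% to 44.7% of TPM per section. The Paneth list (3 of 5 genes left) summed to 7466 to 41207 ppm in the crypt and 9.08 to 81074 at the tip, the villus tip enterocyte list (2 of 3 left) to 12.2 to 106 ppm at the bottom and 20.6 to 228 at the tip, and the mesenchymal list (8 of 8 left) to 108 to 365 and 82.9 to 498. The immune list (6 of 7 left) summed to 310 to 1810 ppm at the bottom and 120 to 632 at the tip, with 6 of 6 genes lower at the tip, 3 of them at an unadjusted p under 0.05, and a median log2 difference of -1.58 beside -0.06 over all genes. The smooth muscle list (3 of 5 left) held 96.1 to 259 and 8.39 to 395 ppm (median -1.86), and the tuft list 2.98 to 8.18 in the crypt and 7.70 to 761 at the tip. Their part in the values of the members was not tested, and in the single cells Erbb3 and Erbb2 were the receptors higher in epithelial cells.

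**Figure D4:**
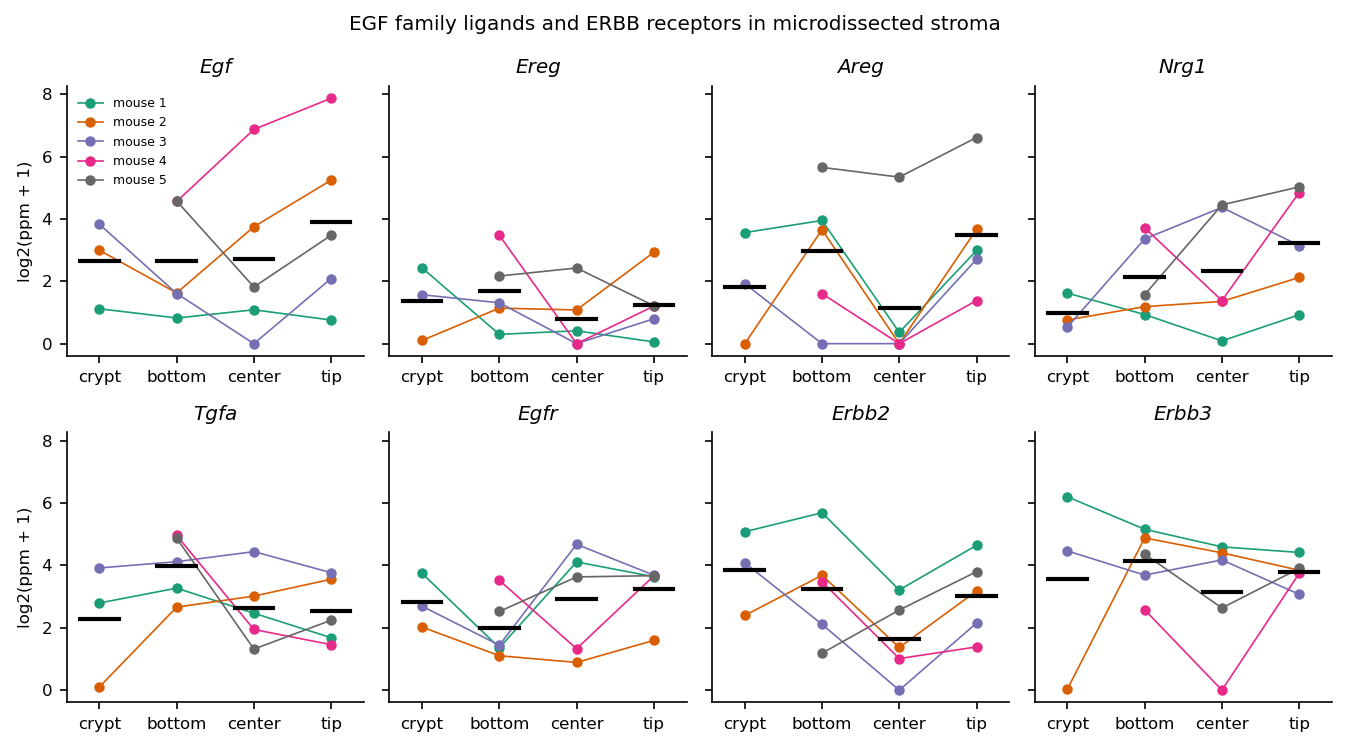
Levels of 8 members as log2(ppm + 1) (y axis) in the crypt, villus bottom, villus center and villus tip of the stroma (x axis), 1 line per mouse and black bars for the zone means (3 mice in the crypt, 5 in the others). Lines cross in every panel. By zone value, Egfr is higher at the tip than at the bottom in 5 of 5 mice, though single sections overlap in mice 1 to 3. Egf at the tip reaches 233 ppm in mouse 4 and 36.9 in mouse 2.

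The other genes of the family and pathway gave 0 calls in the stroma. Of the family, Nrg4, another neuregulin, was at 13.3, 25.2, 24.3 and 20.4 ppm from crypt to tip and Btc, the gene of betacellulin, at 5.18, 8.80, 8.35 and 10.0, whereas the Erbb4 receptor stayed at 0.26 to 1.49 ppm. At villus tip over crypt, limma called 0 of 6 sheddase, 11 inhibitor, 13 RAS-ERK, 7 PI3K-AKT and 8 induced genes, and 1 inhibitor and 1 RAS-ERK gene had an unadjusted p under 0.05, Spred2 (log2 difference -3.04, adjusted p = 1.0) and Araf (-1.80). At villus tip over villus bottom the unadjusted count was 0, 0, 2, 0 and 3, with Grb2 (-1.64) among RAS-ERK genes and Ier3 (-2.05) and Ccnd1 (-1.65) among induced genes, where 7.81% of all genes had such a p.

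The third comparison asks whether the members changed in the epithelium 48 h after DT. 0 of the 6 members with enough counts passed (edgeR quasi-likelihood test; 0 at an unadjusted p under 0.05, and 0 with DESeq2). Among them 5 of 6 had lower fitted levels with DT, with log2 differences of -0.26 to -0.49. The share of all genes with lower levels is not given here. Of all 8986 genes tested 0.356% were called, 32 genes, and 3 with the replicate number as a block. Levels are counts per 1e6 UMIs (CPM).

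Erbb3 was at 104, 147, 129 and 100 CPM with DT (120 ± 22.0, SD, n = 4) and at 161, 153, 147 and 116 in controls (144 ± 19.7). The lowest control lay among the DT values. The log2 difference was -0.26 (SE 0.18, 95% interval -0.64 to 0.13, adjusted p = 0.454), with -0.35 in batch a and -0.20 in batch b. Erbb2 was at 91.8, 64.8, 63.1 and 60.3 CPM with DT and 86.9, 122, 79.4 and 64.6 in controls, a difference of -0.31 (SE 0.18, adjusted p = 0.386). Egfr was at 9.18, 17.5, 17.4 and 16.2 CPM with DT and 14.4, 25.01, 20.02 and 18.8 in controls (-0.29, SE 0.25, interval -0.83 to 0.24, adjusted p = 0.539). In all 3 receptors the mean was lower with DT and the interval included 0. By imaging of mRNA in tissue, the study reported Egfr as reduced in villus tip enterocytes after DT. It cautioned that basal Egfr in the crypt could mask such a change in bulk sequencing. The bulk values here do not separate villus tip cells from the rest, so they cannot decide this for Egfr. Over the 8 samples the genes most like Egfr in log2 CPM, of 8986 genes, included Snapc3 (Pearson r = 0.94) and Vps16 (0.93).

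Hbegf was at 51.8, 38.0, 16.9 and 57.0 CPM with DT (40.9 ± 17.9) and at 63.2, 66.2, 64.6 and 33.6 in controls (56.9 ± 15.6). Of the controls 3 lay above all DT samples and the fourth among them. The difference was -0.49 (SE 0.34, adjusted p = 0.456), -0.54 within batch a and -0.58 within batch b. Whether reads of the toxin receptor on the allele were counted under this name is not known. Villus tip enterocyte genes, which marked the cells with most Hbegf above, were lower with DT in summed CPM, and their part in its level was not tested.

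Tgfa was at 17.5, 14.6, 9.08 and 15.4 CPM with DT and 18.0, 13.2, 21.6 and 14.0 in controls (-0.35, SE 0.27, adjusted p = 0.4996), with 0.05 in batch a and -0.54 in batch b. Areg was the member with a higher mean with DT, at 32.6, 24.4, 15.6 and 52.4 CPM against 55.3, 13.2, 17.3 and 11.3 (0.46, SE 0.54, adjusted p = 0.674). Without the DT replicate 4 its difference was -0.18. Egf (7 UMIs with DT and 11 in controls over 4 samples each), Ereg (7 and 10) and Nrg1 (3 and 2) were below the filter of 1e-05 of a sample's UMIs in 2 samples, and the exact permutation test gave p = 0.829, 0.457 and 0.714, with 0.0286 as the smallest possible.

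**Figure D5:**
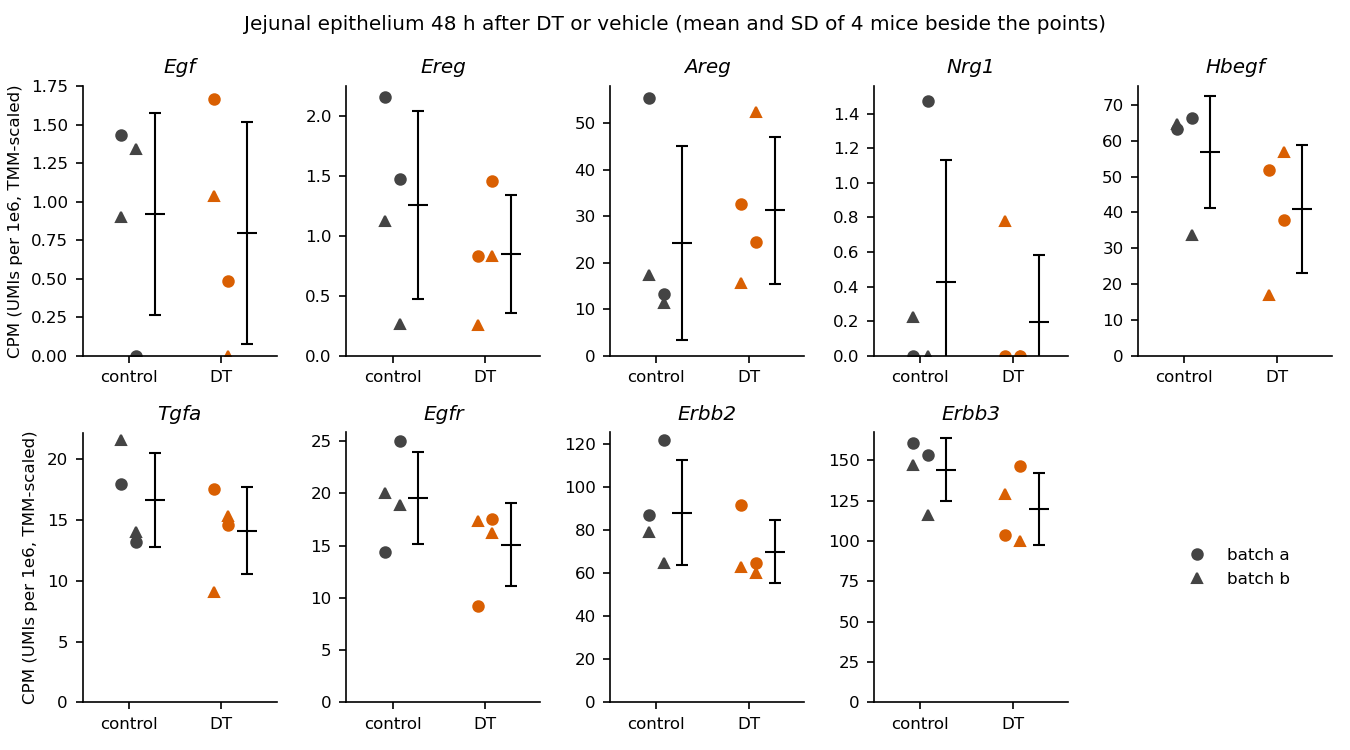
CPM (y axis, from 0, scales differ) of the 9 members in jejunal epithelium 48 h after vehicle (control) or DT, 1 point per mouse with circles for batch a and triangles for batch b, and the mean with SD of 4 mice beside them (lines are cut at 0). The groups overlap in every panel. In 8 of 9 the mean is lower with DT, but Egf, Ereg and Nrg1 among them are below the count filter. Nrg1 has 3 UMIs with DT and 2 in controls.

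Among the rest of the family, Nrg4 was at 8.69 ± 4.10 CPM with DT and 7.88 ± 4.01 in controls (0.15, adjusted p = 0.876) and Btc at 5.94 ± 0.58 and 5.96 ± 1.52, while Erbb4 and Nrg2 had 0 UMIs in all 8 samples. edgeR called 0 of 4 sheddase, 12 inhibitor, 16 RAS-ERK, 7 PI3K-AKT and 8 induced genes, with 0, 1, 0, 2 and 2 at an unadjusted p under 0.05, where 17.3% of all genes had such a p. The smallest p-values belonged to the inhibitor Lrig2 (-0.62, adjusted p = 0.229), to Pik3r1 (-0.37, 0.250) and Akt1 (0.48, 0.285), and to the induced genes Jun (-0.54, 0.276) and Fos (-0.67, 0.277). Median log2 differences of the lists ranged from -0.28 (induced genes) to 0.04 (sheddases), beside 0.00 over all genes and -0.30 for the 6 members.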

How the data were processed

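The authors deposited TPM values per gene for the LCM sections (kallisto on GRCm38 transcripts) and UMI counts per gene for epithelial samples and single cells (zUMIs on GRCm38). The members and gene lists were chosen with earlier results of these data known. From the TPM, 378 genes abundant in the control epithelium of this series were removed (the 487 genes that reach 50% of its UMIs, less ribosomal and mitochondrial ones), no member among them, and values were divided by the sum of genes each under 1% of a sample to give ppm. This list is longer than that of the study's methods. Sections were averaged per mouse and zone, genes with a zone mean above 5 ppm were kept, and log2(ppm + 1) was tested with limma 3.58.1, zone and mouse as terms. Zones come from the same animals, and the deviations of villus tip and villus bottom of a mouse correlated at 0.09 to 0.44. Epithelial counts were tested with edgeR 4.0.16 (robust quasi-likelihood, TMM, 2 batches as given in the study's count table), keeping genes above 1e-05 of UMIs in 2 samples. Samples of the same number correlated at 0.41 to 0.65 in their deviations and, within batches, at -0.14 and -0.06. Single cells were summed per mouse and class (at least 5 cells) and tested with edgeR and its filterByExpr limit. No background of empty wells was subtracted, and 352 wells whose plate matched no sample title were not used. The same mouse gave both classes in part of the sums. Adjusted p-values are Benjamini-Hochberg over all genes tested, with a threshold of 0.05. Single values were tested by exact two-sided permutation (SciPy 1.17.1), paired by mouse where so stated. In the single cells it shuffled class sums as independent, although some mice gave both classes. Named genes were all members, every list gene past the threshold, at most 2 per list by smallest p where none passed, and the 3 best correlates of Egf and Egfr. Alternatives were DESeq2 1.42.0, other filters and pseudocounts, blocks, gates and each replicate left out, and the fits without a count filter were varied in the same ways after the data had been seen. Scripts were tested on simulated data. Intervals and floors cover counting error only. Imaging data were not analysed here. Some genes that the naming rule selects are not reported here.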

Additional observations from a re-analysis of the deposited data

Results flagged for a closer look

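In 20 of 56 groups of 4 to 8 mice, a single mouse stood apart from the others by Dixon's test. For normally distributed values, chance flags about 1 in 20 groups. The test was run on ppm, CPM and UMI rates without a log scale, and such values can be skewed. At the villus tip, for instance, Egf had a mean of 56.7 ppm and a median of 10.1. The count of 20 groups thus cannot be set against that chance rate. Groups in which most mice have 0 are flagged by 1 UMI or 1 section.

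In the stroma these were Egf at the villus center (116 ppm, the next mouse 12.4) and tip (233, next 36.9), both in mouse 4. Areg at the center (39.5 ppm, next 0.29) and tip (96.6, next 11.7) stood apart in mouse 5. Ereg stood apart at the center (4.37 ppm, next 1.11) and at the tip (6.62, next 1.32), and Erbb2 at the villus bottom in mouse 1 (50.6, next 11.9). Egfr at the tip was low in mouse 2 (2.02 ppm, the next mouse 11.4).

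In the epithelium single samples stood apart for Areg in controls (55.3 CPM, next 17.3) and Hbegf in controls (33.6, the next 63.2). With DT they were Egfr (9.18 CPM, next 16.2) and Erbb2 (91.8, next 64.8). Nrg1 was at 0.779 CPM in 1 DT sample (the others 0) and at 1.47 in 1 control (next 0.225).

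In single cells the UMIs per 1e5 of 1 mouse stood apart for Ereg in mesenchymal cells (4.57, next 0.377), for Areg in epithelial (11.4, next 2.76) and mesenchymal cells (0.913, others 0), for Nrg1 in epithelial (11.4, others 0) and mesenchymal cells (2.74, others 0), and for Erbb2 in mesenchymal cells (1.13, others 0). Both epithelial values of 11.4 are 1 UMI in the 8 cells of mouse D.

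Cells outside the compared classes held UMIs above the limit that a count of 0 allows. The 778 cells with none of the class markers held 62 UMIs of Erbb3 in 52 cells, 30 of Erbb2 in 23 cells, 20 of Hbegf in 14 cells, 8 of Tgfa in 5 cells and 6 of Egfr in 5 cells. The epithelial marker list was at 612 UMIs per 1e5 in these cells, beside 974 in the epithelial class. The 25 cells with both kinds of marker held 6 UMIs of Erbb3 in 4 cells.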

How the results depend on the processing

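0 members were called in the stroma and in the ablated epithelium under every alternative run. In the stroma, leaving out a mouse turned the direction of tip over crypt for Erbb3 (-0.89 to 1.96 over the mice left out), Egfr (-0.21 to 0.49), Egf (-0.83 to 0.96), Areg (-0.20 to 1.75), Tgfa (-0.82 to 1.14) and Erbb2 (-1.22 to 0.21), and of tip over bottom for Areg (-0.054 to 0.86) and Erbb2 (-0.90 to 0.27). In the epithelium only Areg turned (-0.18 to 1.17). The mouse as a block was part of the stroma fit, and without the replicate block 0 members were called. With the replicate block 0 members were called in the epithelium and 1 in the filtered single-cell fit, as without it. Over all genes the epithelium gave 32 calls, 3 with the replicate block, 1 with no batch term, 635 with no filter, 143 with DESeq2, and 3 to 41 without 1 sample.

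In epithelial against mesenchymal cells 1 member was called, 6 with no filter, and 1 to 2 without 1 mouse. Erbb3 kept its call in each of these (adjusted p at most 0.0102). Without the filter the 6 became 4 with the replicate block, 4 without the doublet gates, 3 with DESeq2, and 3 to 6 without 1 mouse, and Ereg and Nrg1 ranged from -2.92 to 0.30 and from -4.12 to 1.17. In tip-gene against cycling cells 0 members were called, 2 with no filter, and 0 to 2 without 1 mouse. The 2 became 0 with the replicate block, without the doublet gates and with DESeq2, and 0 to 2 without 1 mouse, and Egfr ranged from -1.74 to 4.57. Over all genes the unfiltered fits gave 5029 calls (3044 with the block, 2484 with DESeq2, 2378 without mouse G) and 1385 (147 with the block, 570 without the doublet gates, 3 without mouse A). Without the filter 8 and 7 members were tested instead of 1 and 0, and of the other changes the cause was not tested. The depth limits most of the single-cell values: Ereg, Areg, Nrg1 and Tgfa had 1 to 28 UMIs where detected. The stroma table gives no depth.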
